A study of Mus musculus with 26 samples.

Results

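The comparison concerned sperm of second-generation male mice of the paternal line of spermatogonial stem cell transplantation (SSCT F2/P) and sperm of control offspring (control F1). Its members were chosen by library number: 5 libraries assigned to SSCT F2/P and 5 assigned to control F1, of 26 in the series, and the autosomal CpG positions with at least 10 reads in all 10 libraries. These were 662997 positions of 3725202 listed in any library of the series, and they fell into 132850 windows of 1000 bp. By the study's breeding scheme, sterile W/W-v males carried cultured DBA/2J spermatogonial stem cells, their sons (SSCT F1) were mated with control females to give SSCT F2/P, and control males gave control F1 with females of the same kind. All 10 mice are labelled DBA/2J males of 3 months, wild type for treatment, and sperm was taken from the cauda epididymis. The controls were bred for 1 generation only, so that generation and transplantation cannot be told apart, and the labels do not tie a mouse to a litter or to 1 of the transplanted males.

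The names of both groups are in doubt. The libraries assigned to SSCT F2/P carry the title control F1, and those assigned to control F1 carry the title SSCT F2/M. The assignment rests on mean coverages that a supplement of the study gives for each group at single CpGs. Its control F1 means matched the control-assigned libraries, within 0.06 reads, at 11 of 12 CpGs and matched the libraries titled control F1 at 0. Its SSCT F2/P means matched the F2/P-assigned libraries at 9 of 11 CpGs, those titled SSCT F1 at 1 and those titled SSCT F2/P at 0. Its SSCT F2/M means matched the F2/P-assigned libraries at 2 of 10 CpGs and those titled SSCT F1 at 9. Its SSCT F1 means matched the libraries titled SSCT F2/P at 10 of 11 CpGs. The libraries titled SSCT F1 and SSCT F2/P are the other 10 offspring libraries below, SSCT-derived by their titles and by these matches. The groups are therefore called F2/P-assigned and control-assigned here, with replicates numbered as in the titles. Under the titles the same sets of 5 libraries would be control F1 and SSCT F2/M, and the sign of every difference below would turn. In the study's clustering figure the F2/P-assigned set is named SSCT F2/M and the control-assigned set control F1, so that under that naming the differences keep their sign but describe the maternal line.

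Sperm DNA is highly methylated outside CpG islands, most gene promoters in it are unmethylated, and most of the pattern is erased and rewritten after fertilisation. Imprinted genes are an exception, because marks set in the sperm or the oocyte persist in the offspring. In RRBS the DNA is cut at CpG-containing sites, treated with bisulfite and sequenced, and the share of reads that kept a C at a CpG gives its methylation level. A position here is a CpG on a single strand, so that both strands of a CpG are separate measurements.

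The 10 libraries held between 49199165 and 72210043 reads at CpG positions, with a median coverage at the tested positions of 32 to 44 reads in the F2/P-assigned and 33 to 47 in the control-assigned libraries. A level of 50% has a 95% Wilson interval of 23.7% to 76.3% at 10 reads and of 35.2% to 64.8% at 40 reads, and such intervals cover counting error only. The unmethylated spike-in control was read as 0.777% to 1.22% methylated in the F2/P-assigned and 0.542% to 0.957% in the control-assigned libraries. Library numbers ran from 2 to 9 in the first group and from 11 to 20 in the second, and since the labels do not give the sequencing pool of a library, pool and group cannot be told apart. Over all windows Pearson's r between libraries lay between 0.957 and 0.970, with a mean of 0.963 both within and between the groups.

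The overall methylation of the sperm differed between the groups by less than the spread between mice. Mean methylation over positions was 33.0% ± 0.0966 (SD, n = 5) in the F2/P-assigned mice and 33.0% ± 0.110 (SD, n = 5) in the control-assigned mice. The mice ranged from 32.9% to 33.1% and from 32.8% to 33.1%, and the means differed by -0.0226 points (exact permutation test, two-sided, p = 0.714, adjusted p = 0.754 over 8 values per mouse). Positions under 20% methylated made up 62.8% ± 0.175 and 62.9% ± 0.187 of all positions (exact permutation p = 0.635), those from 20% to 80% 8.66% ± 0.155 and 8.53% ± 0.263 (exact permutation p = 0.349), and those above 80% 28.5% ± 0.101 and 28.6% ± 0.155 (exact permutation p = 0.381; SD, n = 5 in each group).

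Loci chosen for the methylation marks of sperm were read in both groups, without another cell type for comparison. The loci of H19, Meg3 and Rasgrf1, imprinted genes whose control regions are methylated in sperm, averaged 56.8% to 65.2%, 69.9% to 74.2% and 37.0% to 39.6% over 8, 49 and 83 positions. These are all positions of the gene spans and their margins, so the averages do not give the level of the control regions. The promoters of 7 genes listed as imprinted and methylated in oocytes, among them Plagl1, Igf2r and Grb10, averaged 1.31% to 2.48% in the F2/P-assigned and 1.79% to 3.61% in the control-assigned mice (exact permutation p = 0.151). They were taken at the gene starts, which need not be the regions methylated in oocytes, so their low levels alone do not mark sperm. Starts of germ line genes that somatic cells methylate were covered for Ddx4, Sycp3 and Sycp1, of 6 such genes, and averaged 0.652% to 6.97% and 0.590% to 9.80% (exact permutation p = 0.595). In the mean of these 3 genes replicate 3 was the highest of each group, although at Ddx4 control-assigned replicate 1 was higher (2.79% against 1.84%). Sycp3 rested on 1 position, and Sycp1, a protein of the synaptonemal complex, was at 8.18% and 11.8% in those mice against at most 3.67% in the others. The mean of the loci methylated in sperm also differed by less than the spread (57.4% ± 0.883 and 57.7% ± 0.802, SD, n = 5, exact permutation p = 0.690). After adjustment over the 8 values per mouse each p was 0.754.

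Of 660738 positions under the upper limit of coverage, 2740 (0.415%) were differentially methylated CpGs (DMCs), called at a difference above 25 points and a q-value under 0.01 in a chi-square likelihood-ratio test of the reads. They were 1307 positions (0.198%) with higher and 1433 (0.217%) with lower methylation in the F2/P-assigned mice. Of 132258 windows, 467 (0.353%) were differentially methylated regions (DMRs), 225 (0.170%) higher and 242 (0.183%) lower. The median absolute difference was 29.1 points in DMCs and 29.0 points in DMRs, and the DMRs ran from -53.1 to 52.5 points. In 82.5% of all windows the groups differed by at most 5 points.

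The chi-square test treats each read as independent and leaves out how much mice of a group vary, and when that variation was included no site was called. An F test that divides the deviance by the Pearson chi-square per degree of freedom called 0 DMCs and 0 DMRs. At an unadjusted p under 0.05 it left 1399 positions (0.212%) and 242 windows (0.183%) that differed by more than 25 points. In limma, run on the log2 ratio of methylated and unmethylated reads of each library, the counts were also 0 and 0, with 1734 positions and 286 windows at an unadjusted p under 0.05 and that size of difference. The smallest adjusted p was 0.472 for windows in the F test and 0.337 with limma. The counts and examples below are therefore calls of a test of reads, which does not separate a difference between the groups from the spread between mice.

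The spread was wide at the called sites. Within the groups the median SD of the levels at DMRs was 20.7 points, and the median Pearson dispersion, which is 1 where libraries differ by counting error alone, was 9.07, against 7.92 in all windows of 20% to 80% methylation. The libraries of the groups did not overlap at 273 DMCs (9.96% of them) and 51 DMRs (10.9%), against 0.138% of all positions and 0.423% of all windows. The calls select for large differences, so these shares are not a comparison with the background. Leaving out 1 library at a time left 748 DMCs (27.3%) and 129 DMRs (27.6%) called in all 10 fits, and 32 DMRs met both conditions.

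DMRs lay in partly methylated sequence and mostly held few positions. Windows with a mean of 20% to 80% made up 12.6% of those tested and held 408 of the 467 DMRs, so that 2.45% of them were called. Of the windows under 20%, 0.0544% were called, and of those above 80%, 0.0493%. The share called was highest between 40% and 45% methylation, where 39 of 1116 windows were DMRs. A single position made up 319 of the DMRs (68.3%, against 28.1% of all windows), a pair of positions 94, and 3 or more 54. Of the 63724 windows with at least 3 positions, 0.0847% were called. The median library had 39.0 reads in a DMR and 107 in a window. Both a narrow base of reads and an intermediate level widen counting error, and their part in the calls was not tested.

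**Figure D1:**
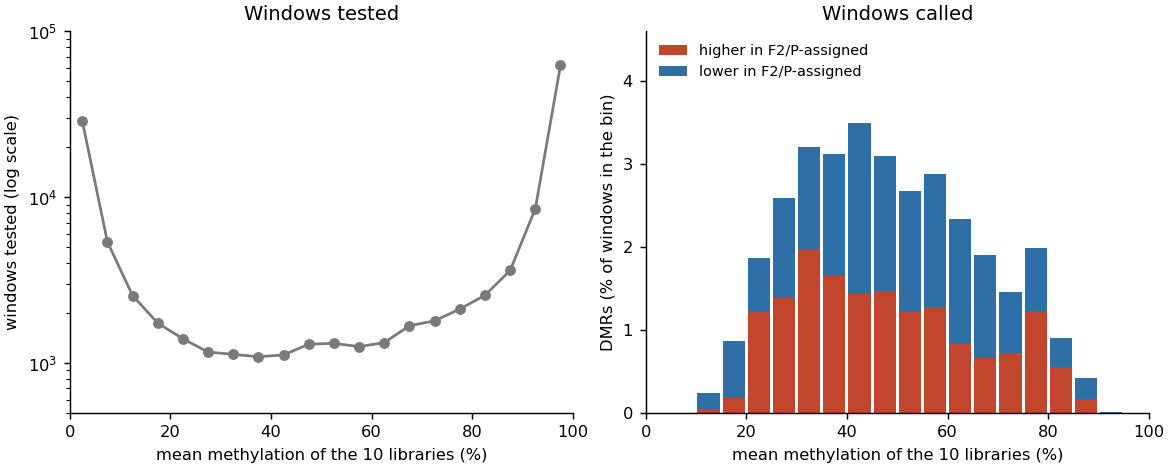
Left, the number of windows tested (log scale) by their mean methylation over the 10 libraries, in bins of 5 points. Right, the percentage of windows in each bin called as DMRs, stacked by direction. Most windows lie at either end, while the calls lie between 10% and 95%, with no DMR among the 28930 windows under 5% or the 62368 windows above 95%. A difference above 25 points can hardly arise at such means, so that this absence follows largely from the threshold.

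Promoters, taken as 250 bases before to 50 bases after the RefSeq start of a gene (GRCm38.p6), held few of the calls. Of 13830 windows that overlapped a promoter, 20 were DMRs (0.145%), 9 higher and 11 lower in the F2/P-assigned mice, against 0.377% of the other windows. Promoter windows were under 20% methylated in 88.5% of cases, and among those of 20% to 80% the share called was 3.14% (16 of 510), against 2.43% (392 of 16137) of the other windows at that level. Of 78586 promoter positions 48 were DMCs (0.0611%). The groups did not overlap at 6 of these 48, and at 9.96% of all DMCs. The 6 lay in the promoters of Cubn, Barhl1, Alpl, Gm17359 (2 positions) and Ms4a15, which were picked for this after their values had been seen. Of these promoters, 4 are printed to show where the called CpGs stood among the other CpGs. The sequences are from RefSeq, on the strand of the gene, with the called CpGs in capitals. CpGs in small letters were either tested and not called, or not tested. The Alpl sequence, for instance, holds 26 CpGs, and 10 positions were tested in it.
Cubn promoter (chr2:13491827-13492126, minus strand): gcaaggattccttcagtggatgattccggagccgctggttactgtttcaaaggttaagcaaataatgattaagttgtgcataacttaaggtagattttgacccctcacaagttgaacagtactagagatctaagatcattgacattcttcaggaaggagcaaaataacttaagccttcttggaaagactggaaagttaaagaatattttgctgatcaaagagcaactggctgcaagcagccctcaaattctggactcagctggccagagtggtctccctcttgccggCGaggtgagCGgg
Barhl1 promoter (chr2:28912446-28912745, minus strand): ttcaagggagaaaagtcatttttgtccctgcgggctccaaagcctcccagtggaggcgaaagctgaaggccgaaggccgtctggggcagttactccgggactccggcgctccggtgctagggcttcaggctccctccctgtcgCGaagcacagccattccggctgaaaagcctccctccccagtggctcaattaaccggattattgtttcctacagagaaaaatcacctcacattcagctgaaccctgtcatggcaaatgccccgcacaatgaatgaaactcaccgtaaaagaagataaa
Gm17359 promoter (chr3:79345121-79345420, plus strand): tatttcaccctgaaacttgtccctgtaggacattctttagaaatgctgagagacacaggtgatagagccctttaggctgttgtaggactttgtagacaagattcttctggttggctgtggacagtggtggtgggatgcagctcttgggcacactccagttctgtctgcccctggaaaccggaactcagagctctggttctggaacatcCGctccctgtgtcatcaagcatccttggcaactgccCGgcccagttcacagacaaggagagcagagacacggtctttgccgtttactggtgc
Alpl promoter (chr4:137796335-137796634, minus strand): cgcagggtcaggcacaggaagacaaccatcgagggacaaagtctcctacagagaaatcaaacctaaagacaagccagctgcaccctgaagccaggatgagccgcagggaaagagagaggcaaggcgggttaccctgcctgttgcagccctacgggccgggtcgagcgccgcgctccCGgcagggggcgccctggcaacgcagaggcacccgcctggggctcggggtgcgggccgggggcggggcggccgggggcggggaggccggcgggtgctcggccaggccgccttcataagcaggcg

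Cubn encodes cubilin, an endocytic receptor that takes up vitamin B12 bound to intrinsic factor. At its CpG at 13491830, 46 bases after the start, the F2/P-assigned mice were at 38.5%, 8.33%, 45.5%, 39.3% and 33.3%, and the control-assigned mice at 81.0%, 75.8%, 55.6%, 54.5% and 100.0%. Every F2/P-assigned mouse was below every control-assigned mouse, a difference of -39.2 points (q = 4.17e-07), on 11 to 33 reads per library. The second called CpG, 9 bases away on the same strand, differed by -31.5 points, and the groups overlapped there. The third, which shares its reads, differed by -14.8 points and was not called (q = 0.0862). The window that holds them, 13491001 to 13492000, was a DMR at 39.5% ± 12.3 and 72.2% ± 21.8 (SD, n = 5, exact permutation p = 0.0159). It was chosen by its call, so this unadjusted p, like those of other called windows below, is no independent support. The control F0 mice, older DBA/2J males outside the comparison, were at 59.5%, 80.6% and 42.0% there, within the range of both groups together.

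Barhl1 encodes a homeobox transcription factor of the developing nervous system and inner ear. Its called CpG lies 107 bases before the start. On the minus strand, at 28912602, the F2/P-assigned mice were at 0%, 7.14%, 14.3%, 30.3% and 14.7% and the control-assigned mice at 52.6%, 41%, 38.1%, 58.6% and 65.2%, a difference of -33.9 points without overlap (q = 6.22e-07). On the plus strand of the same CpG the difference was 0.00814 points (q = 1.00), with the groups at 14.3% to 46.3% and 0% to 50.0%. The CpG next to it, 2 bases away, differed by -5.33 points on the same strand as the call. Over the other 8 positions tested in this promoter the differences ran from -13.1 to 5.03 points.

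Alpl encodes the tissue-nonspecific alkaline phosphatase, which is needed for bone mineralisation. At its CpG at 137796458, 74 bases before the start, the F2/P-assigned mice were at 8.33% in replicate 1 and 0% in the other 4, and the control-assigned mice at 12.9%, 59.5%, 45.5%, 36.0% and 66.7%, a difference of -42.9 points (q = 1.04e-11) on 12 to 42 reads. The next CpG tested, 10 bases closer to the start and read on the same strand, was at 0% in all 10 mice, and the other 9 positions of this promoter differed by -3.33 to 4.51 points. At Gm17359, a predicted gene, both called CpGs were called on the minus strand, where they differed by 32.6 and 33.1 points without overlap. On the plus strand of the same CpGs the differences were -17.1 (q = 0.00148) and -1.71 points, so that the strands of the first went opposite ways.

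At Gm41065, a predicted gene inside Ankrd55, all 7 promoter positions were called, the largest number in any promoter. The 5 of them in the window 112355001 to 112356000 of chromosome 13 lie within 24 bases, and the window stood at 52.9%, 80%, 100.0%, 91.4% and 94.7% in the F2/P-assigned and 100.0%, 55.8%, 52.1%, 100.0% and 24.8% in the control-assigned mice. The groups overlapped almost fully, with a read-weighted difference of 31.1 points (q = 1.01e-44) and an exact permutation p of 0.389. The means of the libraries differed by 17.3 points. Of all DMRs 10.9% had no overlap between the groups. Of the 20 that overlapped a promoter, 2 had none, near Gm39227 and Btnl10. Each holds a single tested position, at 94171383 of chromosome 8 and at 58917257 of chromosome 11, which lies in the window but outside the promoter itself. The position near Gm39227, a predicted gene beside the metallothionein gene Mt2, had 0 of 140 reads methylated in the F2/P-assigned mice, which allows a level of up to 2.14%, and 51.4%, 21.4%, 75%, 20.6% and 21.9% in the control-assigned mice. The position near Btnl10, a butyrophilin-like gene, was at 70.4% to 100.0% and 51.3% to 69.2%, a difference of 28.8 points.

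The called differences were not shared by the other strand of the CpG. Maintenance methylation copies the mark of a CpG onto both strands, and the mean levels of the strands correlated at r = 0.951 across 83535 CpGs tested on both. The differences between the groups did not follow each other in the same way: across these CpGs, which share their libraries but not their reads, r was 0.00734. At the 3765 of these CpGs with a plus-strand mean of 20% to 80%, r was 0.646 for the levels and 0.0148 for the differences. Of the DMCs, 334 had the other strand tested. The other strand differed in the same direction at 167, in the opposite direction at 162 and not at all at 5, and its median difference was 0.105 points, taken as positive in the direction of the call, against 28.1 points at the called strand. Of the 38 DMCs without overlap, 17 had the same sign on the other strand, with a median of -0.259 points. Of the 73 called in all 10 fits without 1 library, 35 had it.

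The other strand was itself called at 14 of the 334 positions, in the same direction at 6 and in the opposite direction at 8. The 6 positions are 3 CpGs. At 19847313 of chromosome 7, at the predicted gene Gm34891, the plus strand differed by -36.5 and the minus strand by -29.8 points. At 136502549 of chromosome 7, at the predicted gene Gm29931, the differences were 41 and 29.5 points. At 110931126 of chromosome 10, at Csrp2, a LIM domain protein gene, they were 28.1 and 26.4 points. The levels at Gm29931 ran from 25% to 100.0% and 0% to 51.2% on the plus strand and from 36.1% to 89.5% and 18.6% to 51.7% on the minus strand. The groups overlapped on both strands at each of these 3 CpGs.

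Neighbouring positions on 1 strand went together only over the length of a read. Reads were 50 bases long, so that positions up to 49 bp apart can share them. Across 423728 pairs of neighbours at 1 to 49 bp, the differences correlated at r = 0.226, and across 71066 pairs at 50 to 1000 bp at r = 0.00357. The levels themselves correlated at 0.764 or more in each range of distance. Beside a DMC, 1946 of 2497 neighbours within 49 bp (77.9%) had the same sign, with a median difference of 12.5 points, and 30% of the library levels were equal to those of the DMC. At 50 to 1000 bp 295 of 645 (45.7%) had the same sign, 303 the opposite, and the median was 0 points.

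**Figure D2:**
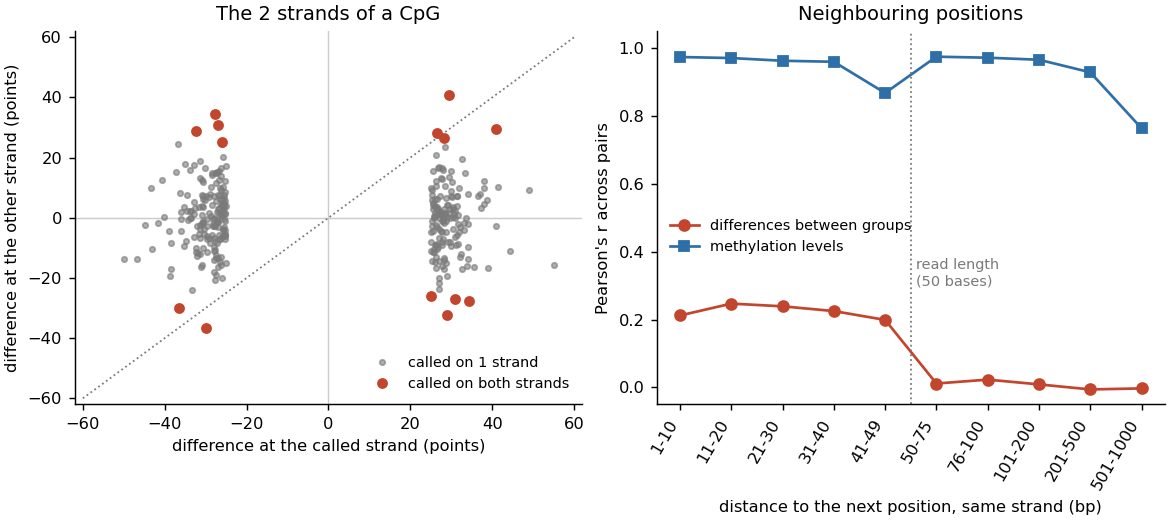
Left, for 334 DMCs, the difference between the groups at the called strand (x) against that at the other strand of the same CpG (y), both in points, F2/P-assigned minus control-assigned, with the dotted line for equal differences. The points spread around 0 on the y axis rather than along the dotted line, and the 14 positions called on both strands lie in all 4 corners. Right, Pearson's r between neighbouring positions on the same strand by their distance in bp, for the differences and for the levels, with the read length as a dotted line. The differences fall from 0.199 at 41 to 49 bp to 0.0114 at 50 to 75 bp, while the levels stay at 0.868 and 0.975.

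Of the 54 DMRs with at least 3 positions, 9 had no overlap between the groups. Over all windows, called or not, 0.423% had none, and the calls select for large differences. The 7 with the largest differences, up to 5 in each direction and none on chromosome 18, are described here, and 6 of them lie outside the gene spans of RefSeq. The largest stood at 12826001 to 12827000 of chromosome 13, where 3 positions within 42 bp were at 50.8%, 20.8%, 61.4%, 37.0% and 28.8% in the F2/P-assigned and 86.9%, 81.0%, 91.4%, 80.5% and 80.8% in the control-assigned mice. The control-assigned mice lay close together at 84.1% ± 4.86 and the F2/P-assigned mice were spread over 39.8% ± 16.4 (SD, n = 5), with a read-weighted difference of -38.1 points (q = 1.72e-59). Control F0 sperm was at 62.4%, 92.5% and 59.2%, and the other 10 offspring libraries ranged from 45.5% to 100.0% with a median of 73.5%.

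At 13750001 to 13751000 of chromosome 14 the F2/P-assigned mice fell into a low and a high set, at 12.5%, 64.5%, 4.35%, 56.7% and 62.1%, and the control-assigned mice were at 64.7%, 87.9%, 78.2%, 66.3% and 74.8%, a difference of -31.1 points. At 39271001 to 39272000 of chromosome 13 the groups stood at 38.0% ± 6.54 and 68.3% ± 7.53 (SD, n = 5), a difference of -27.5 points. Of the control F0 mice, 1 lay in the control-assigned range at 68.8%, 1 in the F2/P-assigned range at 47.2% and 1 between them at 51.7%, and the other offspring had a median of 30.7%. At 22057001 to 22058000 of chromosome 15 they stood at 36.8% ± 10.6 and 68.3% ± 11. Of the control F0 mice 2 were within the F2/P-assigned range, at 27.9% and 38.4%, and 1 within the control-assigned range, at 56.4%. At 59677001 to 59678000 of chromosome 8 the levels were 41% ± 5.45 and 68.1% ± 10.8, and the difference was -27.1 points.

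Higher methylation in the F2/P-assigned mice was found in 2 such windows. At 130536001 to 130537000 of chromosome 10, inside the predicted gene Gm35405, the F2/P-assigned mice were at 47.8%, 63.2%, 47.9%, 53.3% and 36.8% and the control-assigned mice at 9.80%, 27.5%, 0%, 33.3% and 10.6%, a difference of 32.2 points. Control F0 sperm was at 39.0%, 10.0% and 25.6%, and the other offspring had a median of 29.9%. At 75077001 to 75078000 of chromosome 6 the F2/P-assigned mice were within 75.2% to 80.6% and the control-assigned mice ranged from 20.3% to 71.0%, a difference of 28.9 points. All 7 windows had an exact permutation p of 0.00794, which the choice of windows without overlap fixes, so it adds nothing to their description. Each was called in 9 or 10 of the 10 fits that left out a library, and the call was lost on chromosome 14 without F2/P-assigned replicate 1 (-22.4 points), on chromosome 8 without control-assigned replicate 2 (-22.7 points) and on chromosome 6 without control-assigned replicate 4 (24.5 points).

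**Figure D3:**
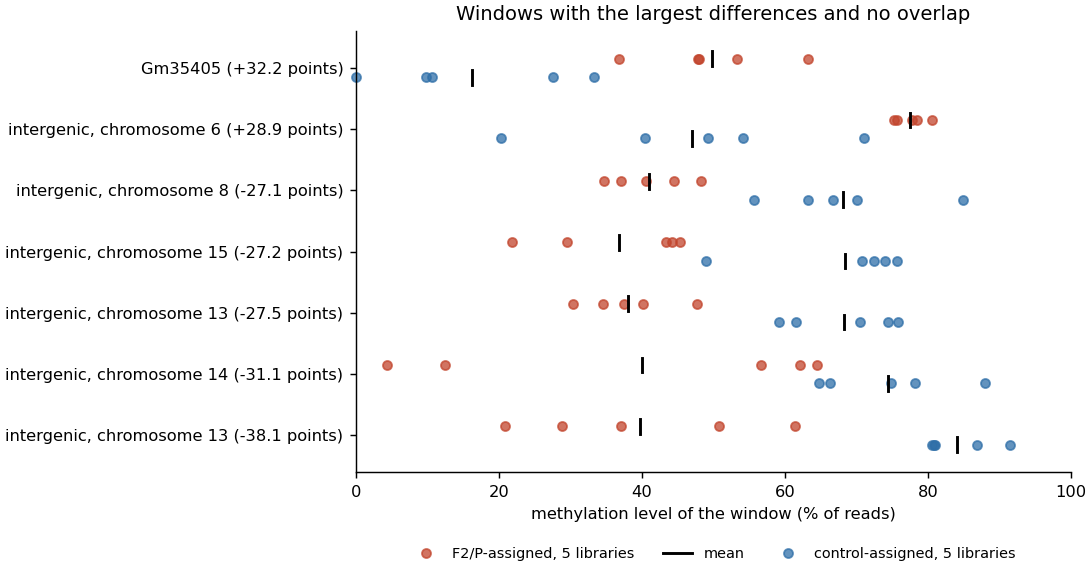
Methylation level (% of reads) of each of the 10 libraries at the 7 windows with the largest differences, at least 3 positions and no overlap between the groups. Points are single libraries, black bars are group means, and the read-weighted difference is given with each window. The F2/P-assigned libraries lie above the control-assigned ones in the upper 2 windows and below them in the lower 5.

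The control F0 mice and the other 10 offspring had no part in the calls, and these offspring are themselves SSCT-derived by their titles. Both were nearer to either group at about as many DMRs, except the control F0 mice where the groups did not overlap. With at least 10 reads, each of the other offspring libraries was nearer to the F2/P-assigned mean at 45.9% to 50.9% of the DMRs, and the 3 control F0 libraries at 50.0%, 49.4% and 46.6%. The mean of the control F0 mice was nearer to the F2/P-assigned mean at 175 of 372 DMRs (47.0%), and the median DMR placed it at 0.453 of the way from the control-assigned to the F2/P-assigned mean. At the 45 DMRs without overlap that they covered, it was nearer to the F2/P-assigned mean at 15 and so to the control-assigned mean at most of them, while the mean of the other offspring was nearer to the F2/P-assigned mean at 19 of 39. The F2/P-assigned libraries, which helped to define the means, were nearer to their own at 77.7% to 81.6% of DMRs and the control-assigned at 20.1% to 28.7%. The control F0 mice were 16 to 18 months old, so age differs as well.

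**Figure D4:**
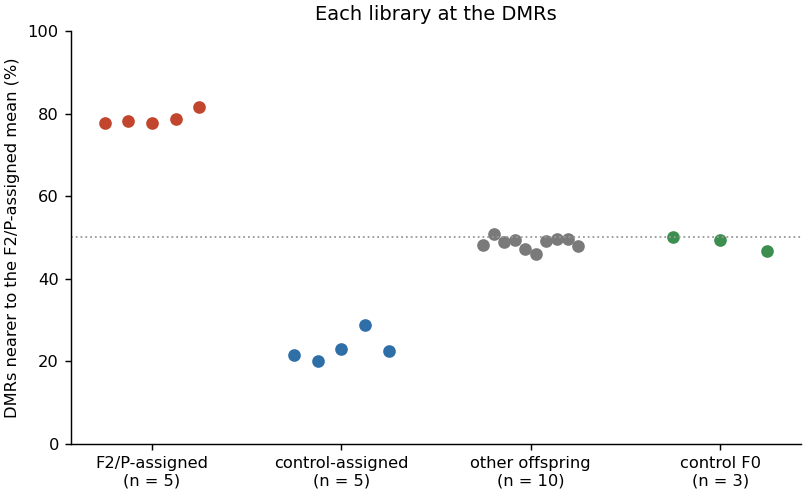
For each library, the percentage of DMRs at which its level is nearer to the F2/P-assigned than to the control-assigned mean. The 10 other offspring and the 3 control F0 libraries lie close to the dotted line at 50%, between the 2 groups that defined the DMRs.

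Genes that the study names for its SSCT F2/P comparison were chosen on these same samples, so they are no independent evidence. The study re-tested genes altered in several generations by bisulfite Sanger sequencing of sperm DNA. Its primers included Zfp229, F930017D23Rik, Nudt1 and a gene given as Lefty. It reports that the RRBS differences of the selected genes could not be reproduced, apart from a smaller one at a gene not listed here. Of 20 genes named for the SSCT F2/P comparison 19 had tested positions. Within their spans and 2000 bp on either side, 13 of 167 windows were DMRs (7.78%), 6 higher and 7 lower, at 12 genes, with 12 DMCs higher and 13 lower among 1065 positions (2.35%). The median difference over all 167 windows was -0.0322 points, against 0 over all windows tested. Over all windows 0.353% and over all positions 0.415% were called, at which share 0.590 DMRs would fall in this list, but the genes were chosen for their calls. Of all DMRs, 68.3% held a single position, 10.9% had no overlap and 27.6% were called in all 10 fits without a library. In this list these were 10, 1 and 1 of the 13 DMRs. The DMR without overlap was at Mt3, a metallothionein that binds zinc and copper in the brain, at 100.0%, 46.2%, 38.5%, 41.7% and 85.7% in the F2/P-assigned and 30.8%, 35.7%, 0%, 22.7% and 35.4% in the control-assigned mice, a difference of 36.2 points on 12 to 48 reads. Without F2/P-assigned replicate 1 it was 24.2 points and no longer called. The control F0 mice with enough reads were at 38.5% and 62.5%.

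Gls2 encodes the liver-type glutaminase, which releases glutamate from glutamine. At its single called position the F2/P-assigned mice were at 38.5%, 30%, 5.41%, 30% and 25% and the control-assigned mice at 81.2%, 20.0%, 63.6%, 72.2% and 44.2%, a difference of -31.6 points. The groups overlapped because control-assigned replicate 2 was low (exact permutation p = 0.0556). The call was lost without F2/P-assigned replicate 3 (-21.9 points) or control-assigned replicate 1 (-23.3 points). Over 32 genes of glutamine and glutamate metabolism, which include Gls2, this was the 1 DMR among 179 windows (0.559%), with 2 DMCs higher and 3 lower among 1148 positions (0.436%), close to the 0.353% and 0.415% of all windows and positions.

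Other genes of the study's list showed wide ranges between mice. Bag2, a co-chaperone of Hsp70, was lower by -28.0 points over 3 positions, but its mice ran from 0% to 100.0% in the F2/P-assigned and from 34.4% to 100.0% in the control-assigned group (exact permutation p = 0.238). It was called in 5 of the 10 fits without a library and fell to -16.8 points without F2/P-assigned replicate 1, with calls also lost without F2/P-assigned replicate 2 and control-assigned replicates 1, 2 and 3. Fbxw7, the substrate receptor of a ubiquitin ligase, was higher by 26.2 points (58.3% ± 14 and 32.6% ± 18.9, SD, n = 5, exact permutation p = 0.0476), and was called in 6 fits, not without F2/P-assigned replicates 1 or 4 or control-assigned replicates 1 or 4 (lowest at 20.8 points). Mypn, a protein of the sarcomere, held a DMR higher by 35.0 points and another lower by -25.4 points. The second was -14.6 points without F2/P-assigned replicate 5 and -19.1 points by means of libraries, and it was called in 5 of the 10 fits, among those lost the ones without control-assigned replicates 1, 2, 4 and 5. Zfp229, a zinc finger gene, had 0 of 202 reads methylated in the F2/P-assigned mice, which allows up to 1.49%, and was at 45.2%, 30.8%, 0%, 28.2% and 17.2% in the control-assigned mice. There the control F0 mice were all at 0% and the other 10 offspring between 0% and 2.33%, so that the 4 methylated control-assigned mice stood apart. Without control-assigned replicate 1 the difference of -27.7 points was -22.6. F930017D23Rik was at 0% in 4 and 10.6% in 1 of the F2/P-assigned mice and from 1.56% to 80% in the control-assigned mice, and without control-assigned replicate 4 its difference of -28.3 points was -22.9.

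The remaining DMRs of this list were Tmprss9, a serine protease (33.6 points), the predicted gene Gm12011 (26.7 points), Gm6590 (-29.5 points) and Elmsan1, which binds histone deacetylases (-33.5 points). In these the groups overlapped, with exact permutation p from 0.0317 to 0.357. Each call was lost without some single libraries. Gm6590 was -18.0 points without control-assigned replicate 2, -22.8 without replicate 5 and -18.9 by means of libraries, and Elmsan1 was -20.9 without control-assigned replicate 3. Tmprss9 was 24.5 points without F2/P-assigned replicate 4, and Gm12011 stayed called in 5 of the 10 fits, not without F2/P-assigned replicates 1 or 5 or control-assigned replicates 3, 4 or 5 (lowest at 22.5 points). Nudt1, Mrm2 and Kcnk10 held neither a DMC nor a DMR. Dapk1, a death-associated kinase, held 2 DMCs lower, Lypd1 1 higher, Etv4, an ETS factor, 1 lower and Gata3, a zinc finger transcription factor, 1 in each direction, all without a DMR.

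Axon guidance genes, which steer growing axons through receptors and their ligands, held 4 DMRs among 976 windows (0.410%), all higher in the F2/P-assigned mice, and 22 DMCs among 5382 positions (0.409%), 12 higher and 10 lower. These shares lie close to the 0.353% and 0.415% of all windows and positions. Epha2 and Ephb2 encode receptors for ephrins, Robo1 a receptor for Slit proteins and Chl1 an adhesion molecule of the L1 family. Ephb2 had no overlap, at 59.3%, 50.0%, 43.8%, 46.2% and 39.1% against 29.3%, 33.9%, 17.6%, 0% and 17.9%, a difference of 25.8 points. It was 22 points without F2/P-assigned replicate 1, 24.5 without control-assigned replicate 3 and 21.9 without control-assigned replicate 4. The control F0 mice were below 4 of the 5 control-assigned mice there, at 15.8%, 6.67% and 4.17%. Epha2, also on the study's list, was at 36.1%, 20.4%, 60%, 55.5% and 54.5% against 0%, 36.6%, 0%, 0% and 49.1%, a difference of 30.8 points (exact permutation p = 0.0714), or 22.2 without control-assigned replicate 4. Robo1 differed by 26.5 points, with 4 control-assigned mice at 0% and 1 at 30.4% (exact permutation p = 0.0159), and was called in 5 of the 10 fits, not without F2/P-assigned replicate 5 or control-assigned replicates 1 to 4 (lowest at 23.3 points). Chl1 differed by 34.3 points, and an F2/P-assigned mouse was at 0% there as well (exact permutation p = 0.0635). Without F2/P-assigned replicate 2, the highest at 85.7%, the difference was 17.3 points and not called.

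Pluripotency genes held 2 DMRs among 119 windows (1.68%), in opposite directions, where 0.420 would fall at the 0.353% of all windows. Among their 736 positions 1 DMC was higher and 1 lower (0.272%, against 0.415% of all positions). Lefty2, a TGF-beta family protein that inhibits Nodal, showed the largest difference of all listed genes. Its single position at 180893911 of chromosome 1 was at 56.2%, 50.0%, 80.6%, 55.0% and 47.1% in the F2/P-assigned mice and 23.9%, 19.2%, 0%, 14.9% and 21.1% in the control-assigned mice, a difference of 45.7 points without overlap (q = 3.62e-16) on 14 to 53 reads, called in all 10 fits without a library. In control F0 sperm it was at 51.7%, 11.3% and 23.3%, which spans both groups, and 9 other offspring ranged from 0% to 94.4%. Tbx3, a T-box factor, was lower by -27.0 points, at 33.8% ± 16.3 and 57.7% ± 17.5 (SD, n = 5, exact permutation p = 0.0714). Its call was lost without F2/P-assigned replicates 2 or 4 or control-assigned replicates 1 or 5 (-22.9 to -24.7 points) and by means of libraries (-23.9 points).

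Genes that write, read or erase DNA methylation held 2 DMRs among 114 windows (1.75%), both lower in the F2/P-assigned mice and both in genes of the enzymes that oxidise 5-methylcytosine. Tet1, another of these enzymes, held neither a DMC nor a DMR in 73 positions and 12 windows. At the 0.353% of all windows 0.403 DMRs would fall in this list. Among its 775 positions 4 DMCs were lower and 0 higher (0.516%, against 0.415% of all positions). Tet2 differed by -25.6 points over 3 positions (46.9% ± 13.7 and 65.8% ± 17.6, SD, n = 5, exact permutation p = 0.0952), with calls lost without F2/P-assigned replicates 3 or 5 or control-assigned replicates 3 or 5 (-19 to -23.9 points). Tet3 differed by -30.7 points, with F2/P-assigned mice at 0%, 50.0%, 32.5%, 56.0% and 26.3% and control-assigned mice at 0%, 76.8%, 0%, 70.6% and 76.7% (exact permutation p = 0.595). The means of the libraries differed by -11.9 points, and the read-weighted difference was -19.8 points without control-assigned replicate 2 and -23.0 without F2/P-assigned replicate 1. Of the spermatogonial stem cell genes, Lin28b, which blocks maturation of let-7 microRNAs, held the 1 DMR among 258 windows (0.388%, close to the 0.353% of all windows), higher by 28.0 points (exact permutation p = 0.206). Its call was lost without F2/P-assigned replicates 1 or 2 or control-assigned replicate 3 (22.6 to 24.9 points) and by means of libraries (24.1 points). The stem cell genes held 3 DMCs higher and 1 lower among 1872 positions (0.214%, against 0.415% of all positions).

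No DMR was called in 6 further lists. These were the imprinted genes methylated in sperm (54 windows), the imprinted genes methylated in oocytes (98), the meiosis and piRNA pathway (138), spermiogenesis and sperm structure (158), the Hox clusters (179) and the glutamate and GABA receptors (471). At the share of 0.353% found over all windows, between 0.191 and 1.66 DMRs would fall in each of these lists. Single DMCs were called in each of them, at 1 of 335, 2 of 769, 1 of 706, 1 of 762, 3 of 2010 and 4 of 2106 positions. These shares, from 0.131% to 0.299%, lie below the 0.415% of all positions. The median window difference of these lists lay between -0.0956 and 0.0596 points, with 0 over all windows.

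**Figure D5:**
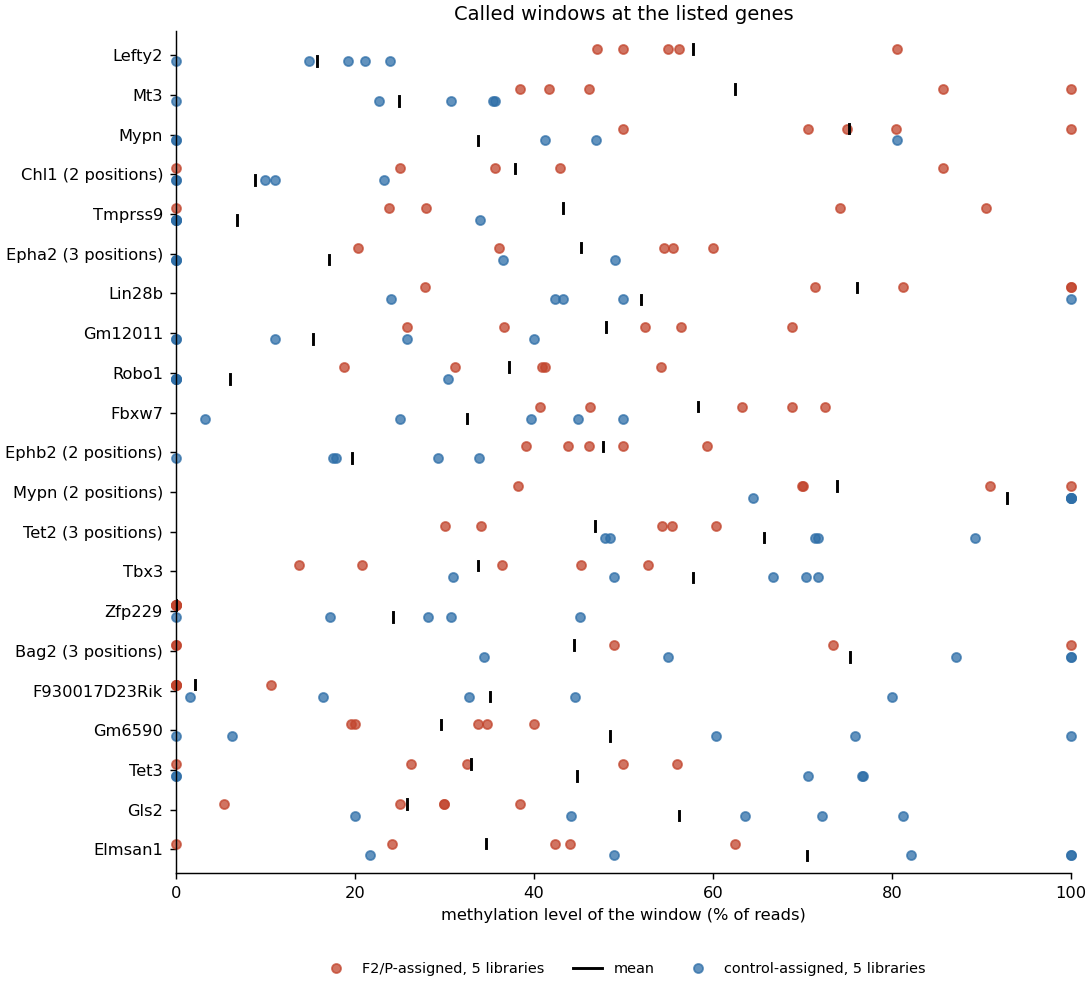
Methylation level (% of reads) of each of the 10 libraries at the 21 DMRs of the listed genes, ordered by the read-weighted difference, with the number of positions where it is above 1. Points are single libraries and black bars are group means. The groups are apart without overlap at 3 of the 21 windows, those of Lefty2, Mt3 and Ephb2, and at 10.9% of all DMRs.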

How the data were processed

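Sperm DNA of 26 mice was analysed by RRBS, and 10 libraries entered the comparison. The files have no header. The authors deposited for each CpG position and strand the coverage as a count of reads and the fraction of these that was methylated. The submitters' processing notes name FastQC, Trim Galore 0.4.1, Bismark 0.20.0 and methylKit 1.7.0 and the build GRCm38 (mm10). The fraction multiplied by the coverage gave whole methylated reads at every position, within a tolerance of 1e-06 of the coverage.

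Autosomal positions with at least 10 reads, and at most the 99.9th percentile of coverage, in all 10 libraries were tested, as were reads summed over windows of 1000 bp. Groups were compared in a logistic model (chi-square likelihood-ratio test, two-sided, no overdispersion term, the default of methylKit), and sites with a Benjamini-Hochberg q under 0.01 and a read-weighted difference of more than 25 points were called. Values per mouse were compared by exact permutation over 252 regroupings, with Benjamini-Hochberg adjustment over 8 values. Alternatives were coverage of 5 or 20 reads, no upper limit, an F test with Pearson scaling, limma 3.58.1 on log2 ratios (1 read added), the replicate block, a 10-point difference, merging of strands, a 500-bp shift of windows, windows of at least 3 positions, other namings and leaving out each library. The tests were tested on simulated data. Python 3.11.15 and NumPy 2.4.6 were used.

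The members and gene lists were chosen with earlier results of these data known. Windows named were the 5 largest differences in each direction with at least 3 positions and no overlap, not on chromosome 18; positions named were those called on both strands in the same direction; and for each list the called windows within the gene span and 2000 bp, at most 4 by size (all for the study's genes; margins of 5000, 20000 and 35000 bp at H19, Meg3 and Rasgrf1). Promoters were added after their values had been seen. RefSeq tables of GRCm38.p6 gave spans and promoters but neither exons nor introns. The mice are separate animals, so that p-values of the permutation test, the F test and limma measure the spread between these mice. The p-values and q-values of the chi-square test of reads do not measure it. Named windows were chosen for their differences, so their permutation p-values, which are unadjusted, only describe them. Libraries of the transplanted males were not used here, and 1 gene was left out of the lists and is not reported here.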

Additional observations from a re-analysis of the deposited data

Results flagged for a closer look

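Values of single mice far from the others of their group were looked for in 88 groups of 5 values (the 8 values per mouse and 36 windows, in both groups), with Dixon's test at a critical value of 0.71, which chance passes in about 1 of 20 groups. Of these, 9 passed (10.2%). In the mean over the starts of Ddx4, Sycp3 and Sycp1 replicate 3 was highest in both groups, at 6.97% where the next F2/P-assigned mouse was at 1.30%, and at 9.80% where the next control-assigned mouse was at 2.67%. Both libraries were among the 10 with a mean methylation of 32.8% to 33.1%.

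Among the F2/P-assigned mice, replicate 3 was at 80.6% at Lefty2, with the next at 56.2%, and replicate 5 was at 10.6% at F930017D23Rik, with the other 4 at 0%. Among the control-assigned mice, replicate 5 was at 48.9% in the window on chromosome 15 from 22057001, with the next at 70.7%, at 30.4% at Robo1, where the other 4 were at 0%, and at 97.9% in the Gm39311 window, where the other 4 were at 100%. Replicate 3 was at 64.5% in the Mypn window from 63135001, with the other 4 at 100%, and replicate 1 was at 34.0% at Tmprss9, with the other 4 at 0%.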

How the results depend on the processing

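The counts moved with coverage and with the test. Coverage of at least 5 reads gave 6245 DMCs and 912 DMRs (of 1028725 positions and 167071 windows), at least 20 reads 571 and 143 (of 250953 and 75110), and a difference above 10 points 32876 and 6543. The F test and limma gave 0 DMCs and 0 DMRs each, and windows with at least 3 positions gave 54 DMRs. Leaving out 1 library gave 3330 to 3764 DMCs and 555 to 680 DMRs. No upper limit, merged strands (2440 DMCs), shifted windows (475 DMRs) and the namings by titles (2924 and 515) or by the study's clustering figure (2612 and 454), which compare other libraries, stayed within 1.5 times the main counts. The replicate block gave 2667 and 456. The numbers pair no animals: the deviations of same-numbered mice correlated at -0.0170 to -0.00214 over windows.

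The difference in mean methylation per mouse was -0.0682 to 0.00206 points without 1 library, turned to 0.0226 under the titles and kept its sign under the other alternatives (-0.0356 to -0.00368, exact permutation p 0.730 to 0.937). At the 36 named windows, 306 of 360 fits without a library stayed past both thresholds, 54 did not and 0 reversed. With means of libraries in place of reads, 8 of the windows differed by 25 points or less. Low coverage limits the calls at single positions, where a level of 0% on 10 reads allows up to 30%.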
